A study of Mus musculus with 12 samples.

Results

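A set of 10 genes that store, import, export or sense iron was followed in the lateral ventricle choroid plexus (LV ChP) of the mouse, the epithelium that makes cerebrospinal fluid. They were Fth1, Ftl1, Tfrc, Trf, Slc40a1, Slc11a2, Cp, Heph, Ireb2 and Aco1, listed by symbol, and all 10 were found among the 24327 genes of the expression table. The list was chosen by function, and selected on the measured low FPKM of Fth1 in TRAP against the supernatant at 9 a.m., which was already known. Fold changes between fractions at 9 a.m. are therefore given as a description, without a test, and so are the time changes of Fth1, which use the same 9 a.m. libraries.

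The mice were adult males heterozygous for Foxj1:Cre, which drives recombination in ciliated epithelial cells, and for a floxed EGFP-tagged L10a allele, so every library of either fraction carries both alleles. Translating ribosome affinity purification (TRAP) recovered RNA associated with tagged RPL10A, and the RNA left over was kept as the supernatant, which holds RNA of every cell type of the dissected tissue. The 4 groups were TRAP at 9 p.m., TRAP at 9 a.m., supernatant at 9 p.m. and supernatant at 9 a.m., with 3 libraries each, and each library came from ChP pooled from 3 mice. The labels give an age of 60 days, 9 a.m. fell in the light phase and 9 p.m. in the dark phase, and mice without Cre were not analysed here. Values are FPKM, reads scaled to gene length and to how many reads of that library mapped, so genes can be compared with each other per length.

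Ferritin is a shell of heavy (FTH1) and light (FTL) chains that stores iron; the heavy chain oxidises it for storage. When iron is scarce, the iron regulatory proteins IRP1 (from Aco1) and IRP2 (from Ireb2) bind a hairpin called the iron-responsive element (IRE). In the 5′ UTR of ferritin and ferroportin mRNA the bound hairpin blocks translation, and in the 3′ UTR of transferrin receptor mRNA it protects the message from decay. The ChP is a site of transferrin synthesis in the brain.

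The hairpins of 4 mRNAs are shown because they are the elements that the iron regulatory proteins are known to bind. A search of spliced UTRs (GENCODE M21 transcripts, GRCm38, transcript strand only) asked for C, then 5 bases, then the 6-base loop CAGTGN, then 5 bases that pair with the first 5, with G opposite T counted as a pair. Capitals mark the loop, each window is 30 bases, and the sequences run 5′ to 3′ on the transcript strand.
Fth1 5′ UTR, chr19:9982731-9982760, plus strand: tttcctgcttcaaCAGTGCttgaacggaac
Ftl1 5′ UTR, chr7:45459779-45459808, minus strand: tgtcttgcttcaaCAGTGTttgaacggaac
Slc40a1 5′ UTR, chr1:45925465-45925494, minus strand: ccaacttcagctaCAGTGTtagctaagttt
Tfrc 3′ UTR, first match, chr16:32631218-32631247, plus strand: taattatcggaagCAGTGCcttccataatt
Tfrc 3′ UTR, second match, chr16:32631597-32631626, plus strand: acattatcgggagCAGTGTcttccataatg

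The Fth1 and Ftl1 stems carry the same bases next to the loop, and the loops end in C and T. Fth1, Ftl1 and Slc40a1 held 1 match each in the 5′ UTR and Tfrc held 4 in the 3′ UTR, while the other 6 genes held none by this rule. The background was 31 of 20580 genes with a 5′ UTR (0.151%) and 129 of 20978 genes with a 3′ UTR (0.615%). A match is a description of letters, not a measured binding site.

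The libraries differed in composition. Summed FPKM ran between 484734 and 1115758 and microRNA rows took 31.9% to 75.4% of it. The summed FPKM of 11 markers of ChP epithelium, among them Ttr, lay between 39297 and 73080 in every library, so the labelled cell type was present in both fractions. TRAP 9 a.m. replicate 3 stood apart, with 107 of 2940 abundant genes listed at 0 (0 to 53 in the others), and its values are singled out below. Fibroblast and macrophage markers were mainly in the supernatant: 8 fibroblast markers summed to 5.97 to 33.3 in TRAP and 89.3 to 311 in the supernatant, and 14 macrophage markers to 0.0695 to 8.24 in TRAP and 12.5 to 89.2 in the supernatant. Over the 12 libraries, markers of endothelium summed to 0.489 to 25.1, neurons to 0.215 to 19.7, astrocytes to 0 to 44.3 and red cells to 0 to 106.

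Over the 12 libraries the mean FPKM ordered the genes as Fth1 531, Trf 175, Ftl1 104, Ireb2 15.6, Aco1 15.0, Cp 7.84, Slc11a2 7.70, Heph 6.80 and Tfrc 4.01. The first 3 never overlapped the other genes: the lowest of their values was 46.9 (Ftl1) and the highest of the rest was 32.6 (Cp). Among the lower 6 each gene overlapped its neighbour in the order. Slc40a1, which encodes ferroportin, the exporter of iron from cells, was listed at 0 in all 12 libraries. Among 10425 coding genes Fth1 ranked 126, 89 and 61 in 9 p.m. TRAP and 26, 51 and 19 in 9 p.m. supernatant. As a description, it ranked 91, 210 and 804 in 9 a.m. TRAP and 12, 11 and 7 in 9 a.m. supernatant. The rank of 804 was in TRAP 9 a.m. replicate 3, the library that stood apart.

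**Figure D1:**
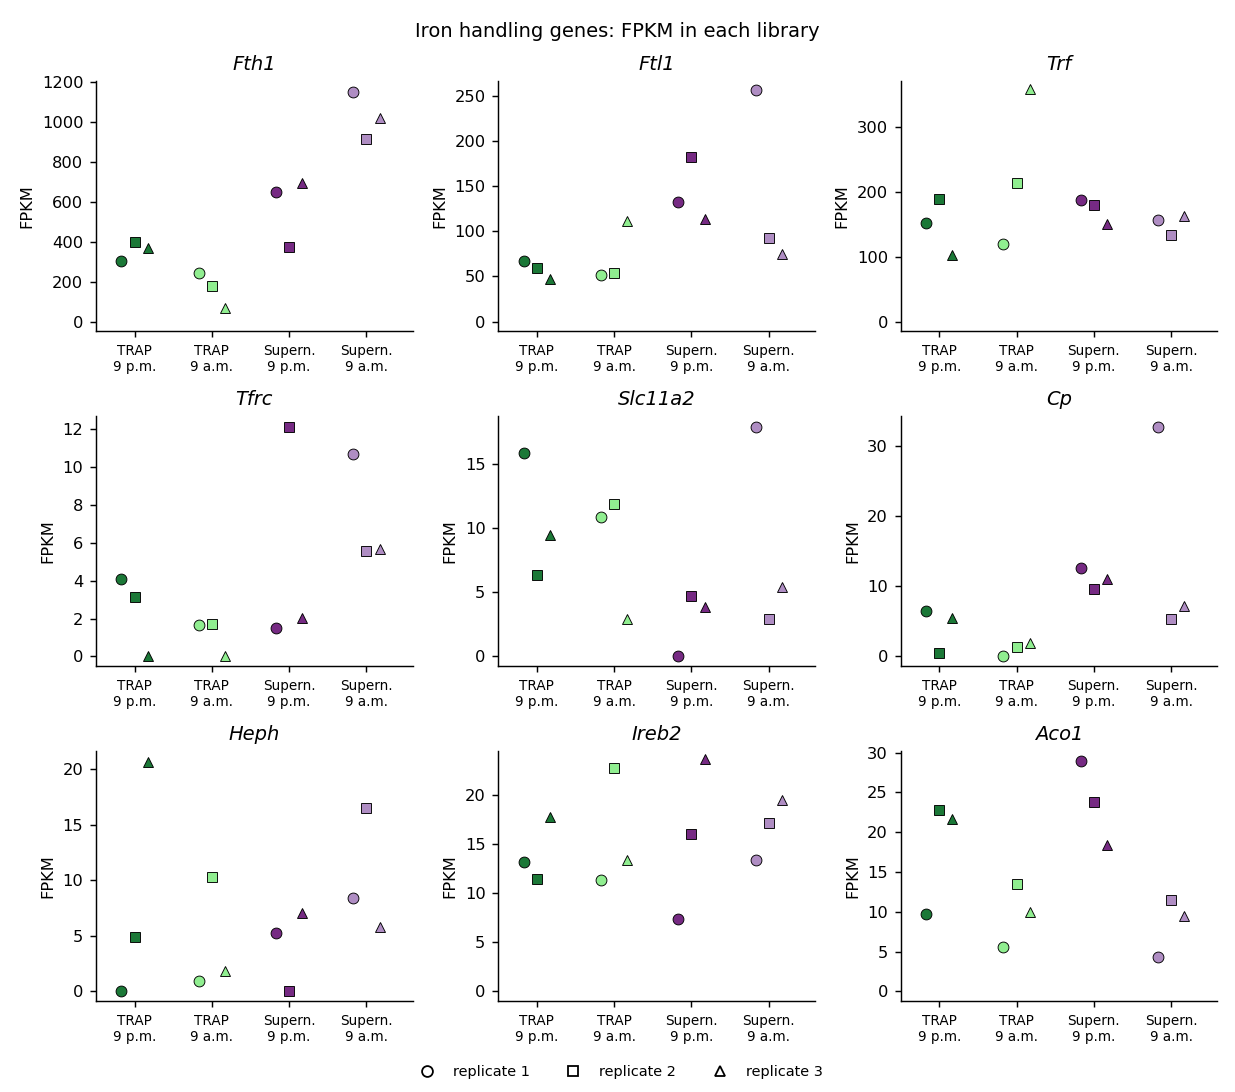
FPKM (linear axes, 1 panel per gene) of 9 iron handling genes in each of the 12 libraries, by fraction and time, with symbols for replicates 1 to 3. Fth1 spans 69.4 to 1152 FPKM and is lowest in TRAP 9 a.m. replicate 3; Slc40a1, listed at 0 throughout, is not drawn.

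Fth1, the ferritin heavy chain (chr19:9980598-9985098), had 303, 398 and 368 FPKM in TRAP at 9 p.m. and 243, 178 and 69.4 in TRAP at 9 a.m. The supernatant held 650, 374 and 693 FPKM at 9 p.m. and 1152, 916 and 1023 at 9 a.m. At 9 a.m. every TRAP library was below every supernatant library, while at 9 p.m. TRAP replicate 2 exceeded supernatant replicate 2. The 9 a.m. means were 163 ± 87.8 in TRAP and 1030 ± 118 in the supernatant, a ratio of 0.159 and a fitted log2 fold change of -2.82 on FPKM + 1. At 9 p.m. the means were 356 ± 48.6 in TRAP and 573 ± 173 in the supernatant (SD, n = 3 each), with a log2 fold change of -0.64 (SE 0.31, limma adjusted p = 0.818). The ratio of means was 0.622 at 9 p.m., and Fth1 was not called at this time.

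Between times, TRAP Fth1 at 9 p.m. was 2.18 times the 9 a.m. mean without overlap (log2 1.29, SE 0.44), and 1.69 times without TRAP 9 a.m. replicate 3. In the supernatant the 9 p.m. mean was 0.556 of that at 9 a.m., again without overlap (log2 -0.89, SE 0.29). These opposite moves gave a difference of time changes of 2.18 on the log2 scale (SE 0.55), which falls to 1.66 without that TRAP library. By absolute size it ranked 1455 of 11156 genes, and 23 genes (0.206%) lay higher in TRAP and lower in the supernatant at 9 p.m. with no overlap in either. Both comparisons use the libraries in which Fth1 was first singled out, so nothing is read from this rank or share. In bulk RNA, fewer cells of a type and less RNA per cell cannot be told apart.

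Ftl1 encodes the ferritin light chain (chr7:45457944-45459884), which helps the iron core to form. It had 67.4, 59.4 and 46.9 FPKM in TRAP at 9 p.m., against 132, 182 and 114 in the 9 p.m. supernatant. No library of one fraction overlapped the other at this time, and TRAP was at 0.406 of the supernatant mean (57.9 ± 10.3 and 143 ± 35.1, SD, n = 3 each). The log2 fold change was -1.27 (SE 0.34), and the limma adjusted p over all genes was 0.785, so Ftl1 was not called. At 9 a.m. it had 51.9, 53.5 and 111 FPKM in TRAP and 256, 93.1 and 75.3 in the supernatant, which overlap. The 9 a.m. ratio of 0.509 rests on single libraries: it was 0.856 without supernatant replicate 1. Between times TRAP had a log2 change of -0.24 (SE 0.44, limma adjusted p = 0.965) and the supernatant 0.20 (SE 0.44, limma adjusted p = 0.989).

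The ratio of Fth1 to Ftl1 within a library does not depend on the scaling of that library. It was 4.49, 6.70 and 7.85 in TRAP at 9 p.m. and 4.68, 3.32 and 0.627 in TRAP at 9 a.m. The supernatant had 4.91, 2.06 and 6.09 at 9 p.m. and 4.5, 9.84 and 13.6 at 9 a.m. All 4 pairs of groups overlapped. At 9 p.m. TRAP exceeded the supernatant by 0.65 on the log2 scale (exact two-sided permutation test, p = 0.3), where 3 against 3 libraries allow no p below 0.1. The TRAP 9 a.m. value of 0.627 belongs to the library that stood apart, the only one with more Ftl1 than Fth1.

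**Figure D2:**
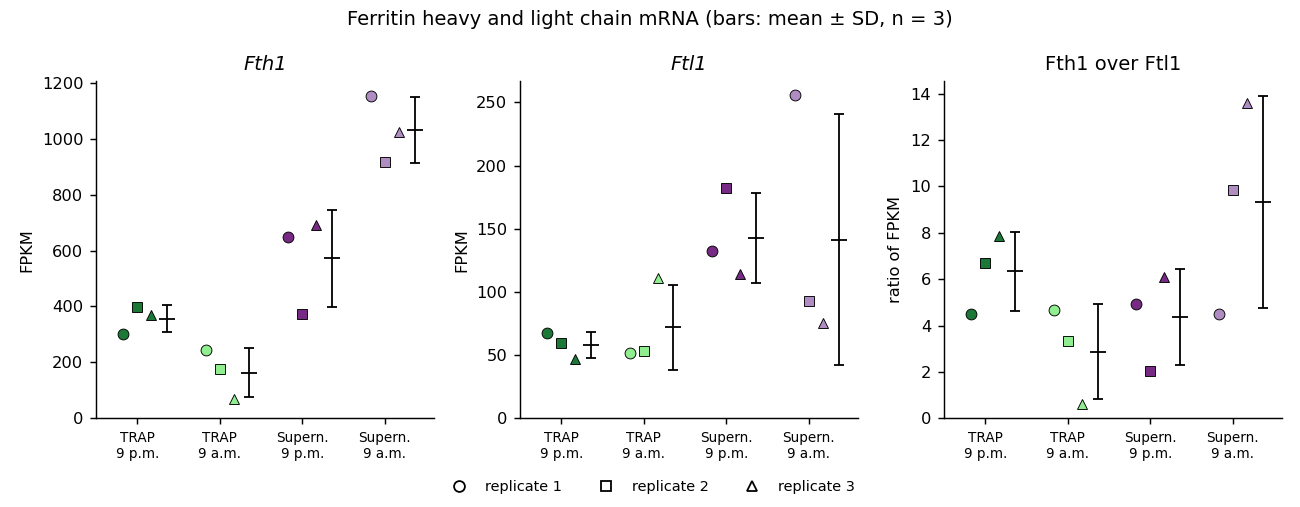
FPKM of Fth1 and Ftl1 and their ratio in each library by fraction and time, with symbols for replicates 1 to 3 and bars for the mean ± SD (n = 3). Fth1 in TRAP at 9 a.m. (69.4 to 243) lies below supernatant at 9 a.m. (916 to 1152), and Ftl1 in TRAP at 9 p.m. (46.9 to 67.4) below supernatant at 9 p.m. (114 to 182).

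The ferritin chains are also abundant in macrophages, whose markers were mainly in the supernatant. At 9 p.m. the 14 listed macrophage markers summed to 3.14 to 4.64 FPKM in TRAP, with 2 of 14 above a mean of 1 and C1qa, C1qb and C1qc at 0, against 37.3 to 62.3 and 6 of 14 in the supernatant. Supernatant 9 a.m. replicate 1, the library with the most Fth1 (1152), Ftl1, Cp and Slc11a2, also had the highest macrophage sum (89.2) and fibroblast sum (311). The other supernatant libraries did not follow this order for Fth1. Replicates 2 and 3 of 9 a.m. had macrophage sums of 14.7 and 12.5 with Fth1 at 916 and 1023. At 9 p.m. the supernatant sums were 43.6, 62.3 and 37.3 with Fth1 at 650, 374 and 693. The part of these cells in the ferritin values was not tested. Reads of processed ferritin pseudogenes could be shared with Fth1 and Ftl1, which is uncertain here; the Fthl17 rows of the table were all listed at 0.

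The other genes of iron uptake were Trf, Tfrc and Slc11a2. Trf, transferrin, the plasma and brain carrier of ferric iron, had 152, 189 and 103 FPKM in TRAP at 9 p.m., against 187, 180 and 150 in the supernatant. At 9 a.m. it had 119, 213 and 358 in TRAP, against 156, 134 and 162 in the supernatant. The groups overlapped at each time. The log2 fold change at 9 p.m. was -0.25 (SE 0.32, limma adjusted p = 0.856), and between times it was -0.53 (SE 0.43) in TRAP and 0.19 (SE 0.28) in the supernatant. The highest value, 358, was in TRAP 9 a.m. replicate 3. Without it the 9 a.m. ratio of TRAP to supernatant was 1.1, against 1.52 with it.

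Trf is also made by hepatocytes and oligodendrocytes. In TRAP 9 a.m. replicate 3 the 10 hepatocyte markers summed to 1613 FPKM, while the other TRAP libraries had 16.4 to 228 and the supernatant 13.7 to 206. Oligodendrocyte markers (9 genes) summed to 73.0 in that library, 4.86 to 16.4 in the other TRAP libraries and 19.9 to 82.1 in the supernatant. Their part in the Trf values was not tested.

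Tfrc, the transferrin receptor that takes up iron-loaded transferrin, was the lowest detected gene. It had 4.08, 3.15 and 0 FPKM in TRAP at 9 p.m., against 1.52, 12.1 and 2.01 in the supernatant, and TRAP replicate 3 was listed at 0 at each time. The 9 a.m. values were 1.68, 1.70 and 0 in TRAP and 10.7, 5.58 and 5.65 in the supernatant, without overlap. At 9 p.m. the log2 fold change was -0.74 (SE 1.16, limma adjusted p = 0.886), and it was 0.01 without supernatant replicate 2. An FPKM of 0 is a listing, since depth is unknown, and is not evidence of absence.

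Slc11a2 encodes DMT1, which carries ferrous iron across endosomal and plasma membranes. TRAP at 9 p.m. had 15.9, 6.36 and 9.49 FPKM, against 0, 4.73 and 3.84 in the supernatant, without overlap. This was the one member above its supernatant in every library of that time, with a log2 fold change of 1.85 (SE 1.04, limma adjusted p = 0.818). The value leans on supernatant replicate 1, listed at 0: it was 1.05 without that library (ratio of means 2.47, against 3.70 with it) and 3.01 with a pseudocount of 0.1. At 9 a.m. TRAP had 10.9, 11.9 and 2.89 and the supernatant 17.9, 2.89 and 5.46, which overlap. DMT1 mRNA exists with and without an IRE.

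Export was represented by the ferroxidases Cp and Heph, which oxidise exported iron so that transferrin can bind it. Ceruloplasmin (Cp) had 6.40, 0.497 and 5.50 FPKM in TRAP at 9 p.m., against 12.6, 9.62 and 11 in the supernatant, without overlap. The log2 fold change was -1.53 (SE 0.94, limma adjusted p = 0.818), and -0.79 without TRAP replicate 2. At 9 a.m. TRAP had 0.0692, 1.41 and 1.86 and the supernatant 32.6, 5.30 and 7.17, also without overlap, and the ratio of means was 0.074 (0.178 without supernatant replicate 1). Every fibroblast sum in TRAP (5.97 to 9.73 at 9 p.m., 13.3 to 33.3 at 9 a.m.) was below every sum in the supernatant (131 to 181 at 9 p.m., 89.3 to 311 at 9 a.m.), and its part in the Cp values was not tested.

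**Figure D3:**
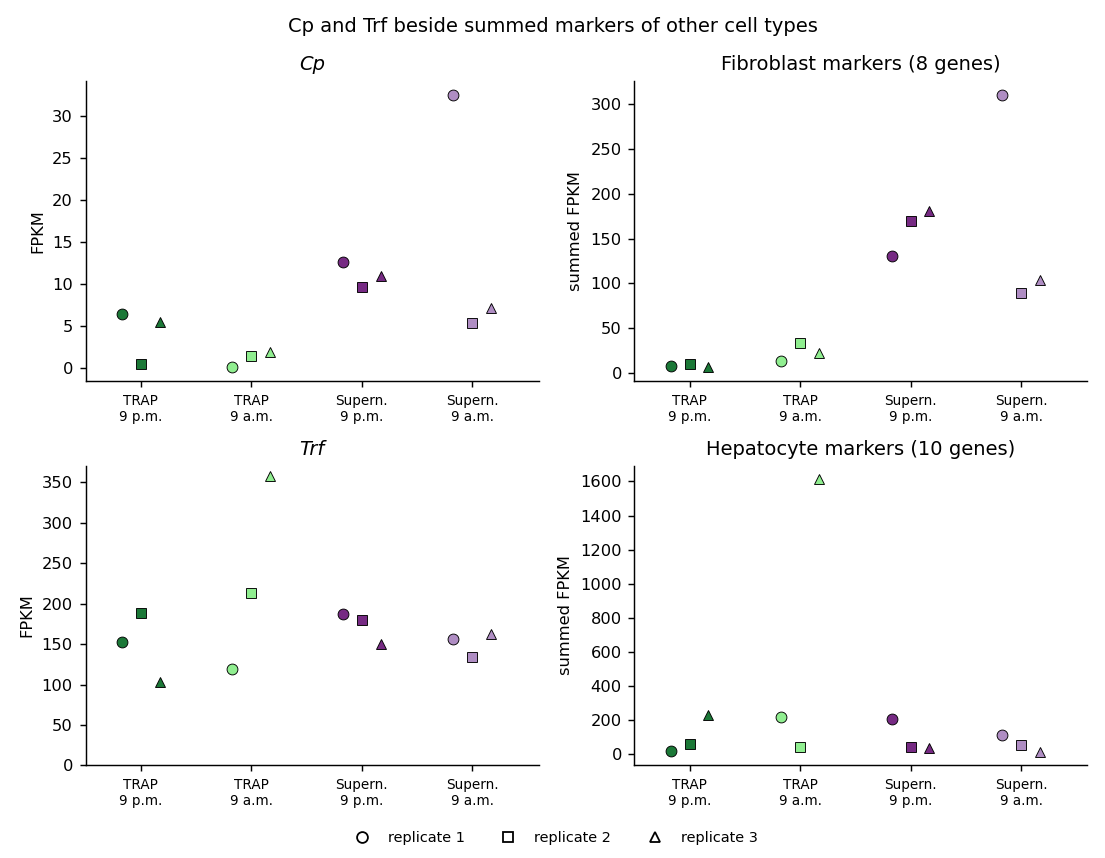
FPKM of Cp and Trf (left panels) beside the summed FPKM of fibroblast and hepatocyte markers (right panels) in each library, by fraction and time, with symbols for replicates 1 to 3. The supernatant 9 a.m. replicate 1 has the highest Cp (32.6) and fibroblast sum (311), and TRAP 9 a.m. replicate 3 the highest Trf (358) and hepatocyte sum (1613).

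Heph, hephaestin, the membrane-bound relative of Cp, was scattered. It had 0.0649, 4.85 and 20.6 FPKM in TRAP at 9 p.m., against 5.21, 0 and 7.05 in the supernatant. The 9 a.m. values were 0.959, 10.3 and 1.84 in TRAP and 8.37, 16.5 and 5.83 in the supernatant. All groups overlapped, and the log2 fold change at 9 p.m. (0.48, SE 1.36) was -0.56 without TRAP replicate 3. Overlapping genes could share reads with 5 of the 10: Heph with Hsf3 on the opposite strand and pseudogenes on its own, Cp with Hps3 and Slc11a2 with Gm5475 on the opposite strand, Trf with the coding gene Gm20425 on its own strand, and Ftl1 with Gm22133 on its own and Gm10252 on the opposite strand.

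The regulators were Ireb2 and Aco1, the sources of both iron regulatory proteins. Ireb2, which encodes IRP2, ranged over 7.36 to 23.7 FPKM in the 12 libraries, with means of 14.1 in TRAP and 15.7 in the supernatant at 9 p.m. and, at 9 a.m., of 15.9 in TRAP and 16.7 in the supernatant. Its log2 fold changes in the 3 tested comparisons lay between -0.21 and -0.03 (SE 0.65 to 0.66). Aco1, which encodes IRP1, also cytosolic aconitase, had 29, 23.8 and 18.4 FPKM in the 9 p.m. supernatant, against 4.35, 11.5 and 9.42 at 9 a.m. The groups did not overlap, with a ratio of 2.82 (log2 1.46, SE 0.66, limma adjusted p = 0.97). In TRAP it had 9.74, 22.8 and 21.6 at 9 p.m. and 5.58, 13.5 and 9.91 at 9 a.m., which overlap (log2 0.82, SE 0.73, limma adjusted p = 0.941).

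Across the list, 9 of 10 genes passed the filter (mean FPKM above 1) in each comparison, which Slc40a1 did not. Calls required a limma adjusted p under 0.05, with a log2 fold change larger in size than 0.3 for fractions and 0.4 for times. Fth1 is left out of the counts between times, where its values are a description. None of the 9 genes was called in TRAP against supernatant at 9 p.m. (background 0.0275% of 10924 genes), and none of the other 8 in TRAP between times (0% of 10563) or the supernatant between times (0.00903% of 11075). At an unadjusted p under 0.05 by limma, the only tool run, there were 1 (Ftl1), 0 and 1 (Aco1), where all genes gave 620, 418 and 363. The fractions at 9 a.m. are the contrast on which the list was selected: Fth1 passed the same limits there, as did 0.0463% of 10796 genes, and nothing is read from that count.

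Groups that did not overlap were counted beside the calls. Between fractions at 9 p.m. Ftl1 and Cp lay lower and Slc11a2 higher, 3 of 9 where 11.9% of all genes did (7.00% lower, 4.90% higher). Between times, with Fth1 left out, each of the other 8 genes overlapped in TRAP (background 8.63%, with 5.70% higher and 2.93% lower). Of these 8, Aco1 alone did not overlap in the supernatant, where it lay higher (background 8.70%, with 4.90% higher and 3.79% lower). The moves of Fth1 without overlap, up in TRAP and down in the supernatant, are a description and are not set against these shares. At 9 a.m. Fth1, Cp and Tfrc lay lower in TRAP (all genes 10.1%, with 3.25% higher and 6.80% lower). The list was selected on that contrast, so nothing is read from this count. The median log2 fold change of the 9 genes was -0.44 between fractions at 9 p.m. (all genes -0.07), 0.37 between times in TRAP (0.16) and -0.21 in the supernatant (0.03). Both medians between times include Fth1, so they are given as a description.

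**Figure D4:**
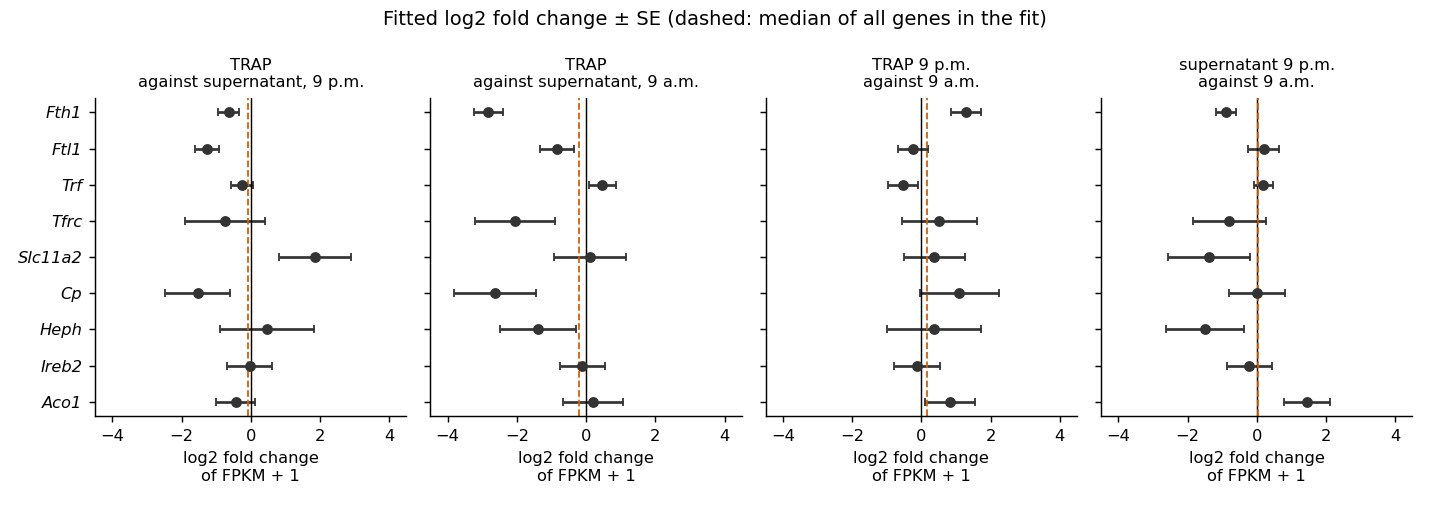
Fitted log2 fold change of FPKM + 1 with its SE for 9 genes (rows) in 4 comparisons (panels), with the median of all genes dashed. Fth1 lies at -2.82 between fractions at 9 a.m. and at -0.64 at 9 p.m., and Slc11a2 at 1.85 at 9 p.m.

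The wider iron pathway was read from 6 lists by role with 78 genes, of which 76 were in the table and 8 were listed at 0 in every library, among them the hormone hepcidin (Hamp) and mitochondrial ferritin (Ftmt). Leaving out the 10 genes, 56 were tested between fractions at 9 p.m., and none was called (4 at an unadjusted p under 0.05 by limma). The fitted log2 fold change was above 0 for 33 and below 0 for 23, with a median of 0.28 against -0.07 for all genes. The haem list had 12 of 15 fitted values above 0 (median 0.50), and the list of mitochondrial iron and Fe-S assembly 16 of 25 (median 0.42). At 9 a.m., given as a description, 24 of the 56 genes tested without the 10 were above 0 (median -0.19, all genes -0.20). There the mitochondrial list had 10 of 25 above 0 and its median, -0.45, lay below that of all genes. The haem list had 9 of 16 above 0 and its median, 0.10, remained above that of all genes. In the uptake list all 7 genes other than Trf, Tfrc and Slc11a2 had values below 0 (median -0.89), and with these 3 genes it was 9 of 10 (median -0.67). Of the 7, Lcn2 was listed at 0 in 11 libraries and rests on 12.3 FPKM in supernatant 9 p.m. replicate 2. At 9 a.m. the uptake list without Trf, Tfrc and Slc11a2 had 5 of 6 tested genes below 0 (median -0.38). The whole uptake list then had a median of -0.20, the same as all genes.

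Between times, the 55 other iron genes tested in TRAP had a median of 0.35 (all genes 0.16), with 37 above 0, and 54 in the supernatant a median of -0.10 (0.03), with 26 above 0. None was called in either (2 in TRAP and 5 in the supernatant at an unadjusted p under 0.05 by limma). In TRAP 5 of the 55 lay higher at 9 p.m. without overlap and 0 lay lower, where 5.70% and 2.93% of all genes did; 3 of these 5 are among the genes of highest FPKM in their lists. Urod, a haem synthesis enzyme, had 160, 154 and 118 FPKM in TRAP at 9 p.m. and 32.3, 78.2 and 92.8 at 9 a.m., without overlap (log2 1.20, SE 0.44, limma adjusted p = 0.941). Alas1, which makes the first haem precursor, had 127, 165 and 95.3 at 9 p.m. and 25.8, 94.1 and 81.5 at 9 a.m., also without overlap (log2 1.09, SE 0.50, limma adjusted p = 0.941). Pcbp2, a chaperone that delivers iron to ferritin, had 82.4, 91.3 and 76.0 in TRAP at 9 p.m. and 69.4, 73.6 and 51.8 at 9 a.m. (log2 0.37, SE 0.37). None of these 3 passed the test. The other iron genes of highest FPKM in their lists went both ways in TRAP between times, each with overlap, and none was called. Below 0 were Hmox2 at -0.56 (SE 0.79), Bmp6 at -0.34 (SE 0.51), Steap2 at -0.31 (SE 0.49) and Iscu at -0.21 (SE 0.65). Above 0 were Bola3 at 2.52 (SE 0.91), Hspa9 at 0.78 (SE 0.44), Skp1a at 0.58 (SE 0.32), Slc39a14 at 0.26 (SE 0.67) and Hfe at 0.08 (SE 0.42).

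Skp1a, a subunit of the ubiquitin ligase that degrades IRP2, had 501, 444 and 277 FPKM in TRAP at 9 p.m., against 209, 153 and 241 in the supernatant (log2 1.0, SE 0.32, limma adjusted p = 0.818), without overlap. Hspa9, a mitochondrial chaperone of Fe-S assembly, had 175, 224 and 178 in TRAP, against 134, 103 and 154 in the supernatant (log2 0.57, SE 0.30). For Bmp6, which signals iron load to hepcidin in the liver, the fractions overlapped at 9 p.m. (log2 -0.05, SE 0.44). Hfe, a partner of transferrin receptors, overlapped as well (0.36, SE 0.79). Steap2, a metalloreductase, Slc39a14, a transporter of non-transferrin iron, Iscu, the Fe-S scaffold, Bola3, and the haem oxygenase Hmox2 overlapped between fractions at 9 p.m. in the same way, with log2 fold changes of -0.60, -0.35, 1.57, 0.54 and -0.76.

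**Figure D5:**
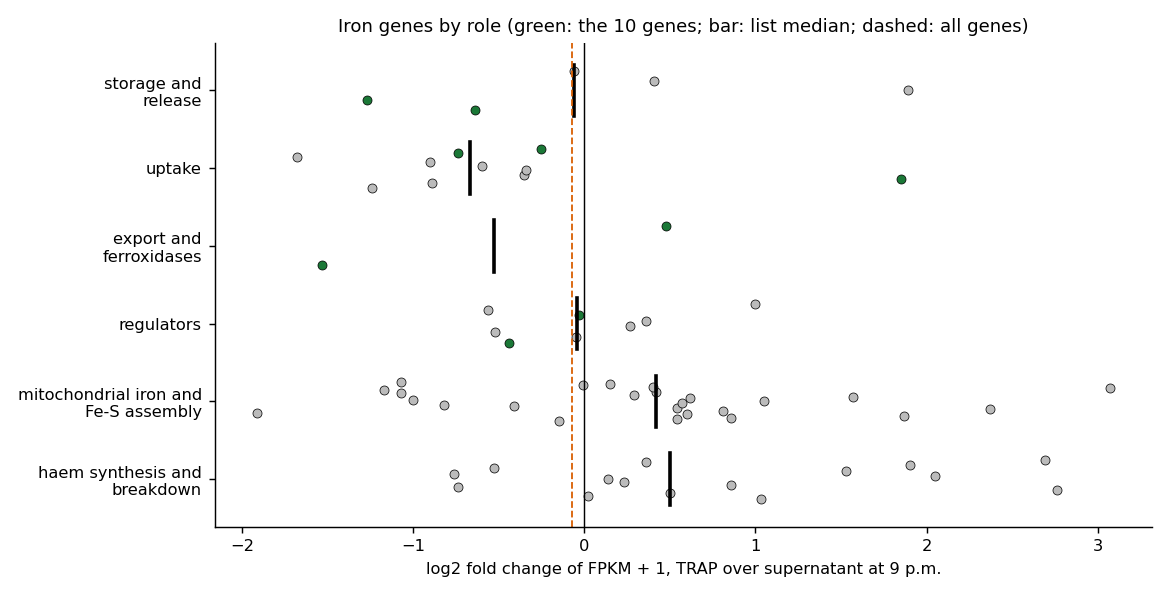
Log2 fold change of FPKM + 1 of TRAP over supernatant at 9 p.m. for each gene tested (points; green for the 10 genes) in 6 role lists, with the list median (bar) and the median of all genes (dashed, -0.07). The list medians lie at -0.67 for uptake and 0.50 for haem synthesis and breakdown.

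Messages with an IRE in the 5′ UTR were also read as a list, of 6 genes with 4 tested between fractions at 9 p.m., where 3, Fth1 and Ftl1 among them, were below 0 (median -0.33). Epas1, a hypoxia factor with a known IRE, had 172, 196 and 205 FPKM in TRAP at 9 p.m., against 204, 185 and 163 in the supernatant (log2 0.05, SE 0.27). The 3 genes listed for an IRE in the 3′ UTR went both ways at 9 p.m. Tfrc had -0.74 (SE 1.16), which is also the median, and Cdc14a, a phosphatase, had -0.95 (SE 1.14). Slc11a2 had 1.85 (SE 1.04). That list was not made by the motif search, in which Slc11a2 held no match. Of the 28 genes of the table with the hairpin motif in a 5′ UTR, 20 were tested at 9 p.m., with 12 below and 8 above 0 (median -0.18, all genes -0.07).

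The coding genes whose log2(FPKM + 1) was most like that of Fth1 over the 12 libraries were Ttbk2 (Pearson r 0.95), Ccng1 (0.94), Vegfb (0.93), Ccdc43 (0.91) and Ctnnal1 (0.90), out of 10424 compared. Ccng1 had means of 81.9 ± 1.40 in TRAP at 9 p.m. and 55.7 ± 30.3 in TRAP at 9 a.m., against 105 ± 16.7 at 9 p.m. and 170 ± 45.5 at 9 a.m. in the supernatant (SD, n = 3). For Ftl1 they were Nfx1 (0.93), Lrriq1 (0.91), Ttc28 (0.88), Usp47 (0.86) and Akap12 (0.85). The lists share no gene, and Fth1 and Ftl1 had r 0.36 with each other. The points share fraction and time, and may share pools, so these values only describe the libraries. Among the 10 genes Cp had the highest r with Ftl1 (0.75) and Trf the lowest with Fth1 (-0.56).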

How the data were processed

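Sequencing was of TRAP and supernatant RNA in 12 libraries. Single-end reads (50 nt) were mapped to mm10 by the authors with STAR 2.4.0, and the FPKM values they deposited were made with Cuffquant. Neither the strand setting nor the annotation version is stated in what was read here, and reads from genes on opposite strands of a locus could not be separated. FPKM is relative to each library, and depth is unknown: whole reads could not be recovered (26.0% to 42.4% of values whole within 0.05). Of 24354 rows, 27 whose names had become dates were dropped, and 23289 names (95.7%) matched GENCODE M21.

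Groups and replicate numbers came from the labels, and p-values measure the spread between these pooled libraries. Tests used limma 3.58.1 in R 4.3.3 on log2(FPKM + 1) with the trend option. Genes entered a fit when their FPKM averaged above 1 in its libraries, and p-values were adjusted by Benjamini-Hochberg over all of them. Fold changes on this scale understate those of low genes. Scripts were tested on simulated data. Single ratios were compared by exact permutation. The labels give a TRAP and a supernatant library of a time the same animal number, and use the same numbers again at the other time. Whether the libraries of the same time and number share a pool is not stated. Correlations of their deviations were -0.075 to -0.014 (times -0.007 to 0.104), so the replicate block was an alternative.

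The members and lists were chosen with earlier results of these data known. The text names the 10 genes, the 3 genes of highest mean FPKM in each list, any called gene, ferritin copies and the 5 coding genes most like Fth1 and Ftl1. Alternatives were a pseudocount of 0.1, no filter or a mean FPKM above 5, no trend, robust fits, quantile normalization, coding genes rescaled, the block and leaving out each library.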

Additional observations from a re-analysis of the deposited data

Results flagged for a closer look

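Fth1 moved in opposite directions between times in the 2 fractions, every library included: the ratio of the 9 p.m. mean to the 9 a.m. mean was 2.18 in TRAP and 0.556 in the supernatant. The difference was not tested, because the 9 a.m. libraries of both fractions are those in which Fth1 was first singled out. Opposite moves without overlap were seen for 36 of 11156 genes (0.323%). For the same reason nothing is read from this share for Fth1.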

How the results depend on the processing

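None of 402 alternative values of the 9 genes in the 3 tested comparisons was called. The lowest limma adjusted p was 0.53, for Ftl1 between fractions at 9 p.m. The 402 values include the time changes of Fth1, which are a description and not a test. Cp in the supernatant between times, at 0.00, has no direction and gave -0.46 to 0.74 over its 15 alternatives; of the other 387 values 369 kept their direction and 18 turned. Between fractions at 9 p.m., leaving out libraries gave Heph -0.56 to 1.61 (negative without TRAP replicate 3 or supernatant replicate 2), Ireb2 -0.46 to 0.32 and Tfrc -1.18 to 0.01 (positive without supernatant replicate 2). In TRAP between times it gave Ftl1 -0.42 to 0.12 and Slc11a2 -0.18 to 0.68 (both turned without 9 a.m. replicate 3), Heph -0.67 to 1.5 and Ireb2 -0.32 to 0.16; quantile normalization gave Heph -0.02 and Slc11a2 -0.20, and a pseudocount of 0.1 Heph -0.11. In the supernatant between times it gave Ftl1 -0.14 to 0.73 and Ireb2 -0.56 to 0.22. In the 9 a.m. contrast on which the list was selected, given as a description, the number of listed genes past the limits (1) was 0 with a pseudocount of 0.1, no filter, a mean FPKM above 5, no trend, quantile normalization, and without each of the 3 supernatant libraries of 9 a.m. (range 0 to 1 on leaving out libraries). The count of all genes called between fractions at 9 p.m. (3) was 0 with no filter, 1 with no trend, 5 with quantile normalization, and 2 to 7 on leaving out libraries; TRAP between times (0) gave 0 to 5 on leaving out libraries; the supernatant between times (1) was 0 with no filter or with coding genes rescaled, 2 with quantile normalization, and 1 to 4 on leaving out libraries; at 9 a.m. (5) it was 3 with a pseudocount of 0.1 or no filter, 1 with no trend or coding genes rescaled, and 3 to 11 on leaving out libraries. The replicate block left 0 of the listed genes called in the tested comparisons, with Fth1 left out between times. Of all genes it left 3, 0 and 1 called in these comparisons and 5 at 9 a.m. The Fth1 difference of time changes stayed at 2.18 with the block. That difference was 1.66 to 2.55 on leaving out libraries, alternatives chosen after seeing the data; the median of all genes moved between 0.11 and -0.09 on rescaling coding genes. The 9 p.m. difference of the Fth1 to Ftl1 ratio was 0.18 to 0.96. The cause of these changes was not tested. With 3 libraries per group and unknown depth, low values such as those of Tfrc, Heph and Cp limit what can be seen.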
